A study of Mus musculus with 4 samples.

Results

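The liver X receptor (LXR) complex was followed at the RNA level in mouse small-intestinal organoids through 9 named genes. They were taken by name: the receptors Nr1h2 and Nr1h3, the retinoid X receptor (RXR) partners Rxra and Rxrb, the corepressor Ncor1, the coactivators Ncoa1, Ncoa2 and Ncoa3, and the Mediator subunit Med1. All 9 were found among 30284 annotated genes, and all 9 were among the 13602 genes with enough counts to be tested. No measured value was used to choose them, though they were listed with earlier results of these data known.

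LXRα (Nr1h3) and LXRβ (Nr1h2) are nuclear receptors that sense oxidised cholesterol derivatives, and each binds DNA as a heterodimer with an RXR. Without ligand the dimer holds corepressors of the NCoR family at its target genes. An agonist shifts the receptor's surface so that corepressors leave and p160 coactivators (the Ncoa family) and Mediator, through Med1, are recruited. In the intestinal epithelium this complex is known for driving genes that export sterols.

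GW3965 is a synthetic agonist of both LXRs. Organoids, which are epithelial cultures grown in Matrigel, were made from small-intestinal crypts of 2 male C57BL/6J mice, with an age label of 9 weeks, and held for 6 h with 2 µM GW3965 or with the vehicle DMSO. Each mouse gave 1 culture per treatment, so the GW3965 group and the DMSO group had 2 libraries each, from the same strain and animals. The extraction text names colon samples, whereas the tissue label and the culture text name small intestine.

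The libraries held 16572359 to 19486547 estimated counts. One culture differed in make-up, that of mouse 1 with GW3965. Mitochondrially encoded transcripts made up 14.01% of the gene counts there, against 7.60 to 9.43% in the other 3 libraries. Markers of leukocytes (15 listed) summed to 229 TPM (a level per transcript length, scaled to one total in every library) in it and to 101 TPM in mouse 2's GW3965 library, against 133 and 118 TPM with DMSO. The 12 epithelial markers were above 0 in every library and summed to 13156 TPM in the GW3965 library of mouse 1, and to 18375 to 20490 TPM in the other 3. Markers of mesenchyme and endothelium summed to 22.9 to 26.1 TPM.

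Some known LXR target genes rose with GW3965. In the list of 17 targets, 16 were tested, 6 rose, 0 fell, and the median log2 fold change was 1.38, against 0.00032 over all genes tested (edgeR's quasi-likelihood test, Benjamini-Hochberg adjusted p under 0.05). The sterol exporter Abca1 had 42.8 and 60.4 CPM (counts scaled for library size, not for length) with GW3965, against 0.462 and 1.75 CPM with DMSO. That list had been drawn up with earlier results of these data known, and Nr1h3 is in it.

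The start regions of the receptor genes are shown because they bear on whether an LXR element lies near them. Windows of 250 bases before to 50 bases after a transcription start were available from RefSeq (GRCm38.p6) for 7 of the 9 genes, 11 windows in all. LXR-RXR dimers bind direct repeats with a 4-base spacer (DR4), searched here as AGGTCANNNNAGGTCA on both strands. Below, the capitals mark the 16 bases of the best match in each window, which is written 5′ to 3′ on the gene's strand.
Nr1h2, chr7:44553916-44554215, minus strand: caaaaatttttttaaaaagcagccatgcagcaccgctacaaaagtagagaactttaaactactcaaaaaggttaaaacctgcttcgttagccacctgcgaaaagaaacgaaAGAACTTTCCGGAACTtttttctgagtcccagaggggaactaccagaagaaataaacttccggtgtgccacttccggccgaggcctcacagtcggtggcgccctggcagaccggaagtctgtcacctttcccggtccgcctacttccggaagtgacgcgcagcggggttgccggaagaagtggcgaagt
Nr1h3, chr2:91195067-91195366, minus strand: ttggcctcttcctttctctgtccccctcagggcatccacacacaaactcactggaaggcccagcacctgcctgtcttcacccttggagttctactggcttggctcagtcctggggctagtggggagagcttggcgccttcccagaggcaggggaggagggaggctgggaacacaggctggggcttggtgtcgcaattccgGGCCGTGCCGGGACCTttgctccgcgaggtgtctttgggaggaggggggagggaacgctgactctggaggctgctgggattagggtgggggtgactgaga
Rxra (second start), chr2:27709042-27709341, plus strand: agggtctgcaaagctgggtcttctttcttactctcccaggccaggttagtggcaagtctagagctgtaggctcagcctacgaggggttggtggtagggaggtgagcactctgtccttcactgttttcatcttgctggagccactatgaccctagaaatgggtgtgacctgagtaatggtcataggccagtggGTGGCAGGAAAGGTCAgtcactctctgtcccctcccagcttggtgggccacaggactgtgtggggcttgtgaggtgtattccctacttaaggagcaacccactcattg

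The best match agreed at 8 of 12 fixed bases in the Nr1h2 and Nr1h3 windows, a level that 76.9% of 32851 mouse windows reached. The second Rxra window had the best match of the 11 windows, at 9 of 12. It alone held the hexamer AGGTCA, in 2 copies. The first Rxra window and those of Rxrb, Ncor1, Ncoa1 and Med1 reached 7 or 8 of 12. At least 9 matches occurred in 21.9% of windows, and at least 1 copy of the hexamer in 16.3%. In windows of genes that rose, the best DR4 match reached 9 of 12 for Abca1 and Srebf1, 8 for Abcg5 and Abcg8, and 7 for Ppara. Abcg1 and Scd2, which also rose, had no window available. The DR4 search thus did not separate these windows from the 11 windows, which cover 7 of the 9 genes. For comparison, Abca1 and Srebf1 held elements closely like each other.
Abca1, in the window chr4:53159846-53160145, minus strand: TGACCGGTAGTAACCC
Srebf1, in the window chr11:60210422-60210721, minus strand: TGACCGCCAGTAACCC
Their shared letters, TGACCGNNAGTAACCC, were chosen after they had been seen. All 14 fixed letters were present in 3 of the 32851 windows, those of Abca1, Srebf1 and Fasn (the fatty acid synthase gene), which did not pass the test (log2 fold change 0.12 ± 0.21, edgeR adjusted p = 0.99986). The windows of Abcg5, Abcg8 and Ppara, which rose, matched at 8 or 9 of the 14. None of the 11 windows matched at more than 9 of the 14, a level reached by 60.0% of windows. A match in these letters is a description of sequence and not a site of binding, and these windows do not cover introns or distant elements.

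The organoids expressed Nr1h2 more strongly than Nr1h3. Nr1h2 (chromosome 7, 44549616 to 44553951, minus strand; GRCm38, GENCODE M21) was at 44.2 and 47.5 TPM with GW3965 in mouse 1 and mouse 2, and at 47.8 and 46.0 TPM with DMSO. The 4 libraries lay close together, and the treatments overlapped on this scale. In the DMSO cultures its mean level was above that of 81.6% of the genes tested.

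Nr1h3 (chromosome 2, 91184061 to 91202834, minus strand) was at 12.3 and 12.1 TPM with GW3965 and at 13.2 and 11.3 TPM with DMSO. The GW3965 libraries lay between the DMSO libraries, near the middle of the transcriptome (above 54.8% of genes tested in DMSO). The ratio of Nr1h2 to Nr1h3 in TPM was 3.60 and 3.92 with GW3965, and 3.62 and 4.07 with DMSO. LXRα is also known from macrophages. Of the myeloid genes among the leukocyte markers, Csf1r was at 0.113 to 0.208 TPM, Adgre1 at 0 to 0.0386 TPM and Itgam at 0 to 0.153 TPM in the 4 libraries. Cd68 was at 3.22 to 5.15 TPM, Lyz2 at 1.699 to 2.76 TPM and Fcer1g at 1.98 to 2.66 TPM. The part of such cells in the level of Nr1h3 was not tested. In bulk RNA, fewer cells of a type and less RNA per cell cannot be told apart.

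The RXR genes stood at like levels in the DMSO cultures, with Rxrb first. Rxrb (chromosome 17, 34031812 to 34038399, plus strand) was at 21.2 and 19.9 TPM with GW3965 and at 24.3 and 20.2 TPM with DMSO. Rxra (chromosome 2, 27676440 to 27762957, plus strand) was at 9.16 and 20.99 TPM with GW3965 and at 17.8 and 15.8 TPM with DMSO. The GW3965 libraries of Rxra were the lowest and the highest of the 4, with the low one in mouse 1. Rxrg, the third RXR gene, was in the fixed lists and did not have enough counts to be tested.

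**Figure D1:**
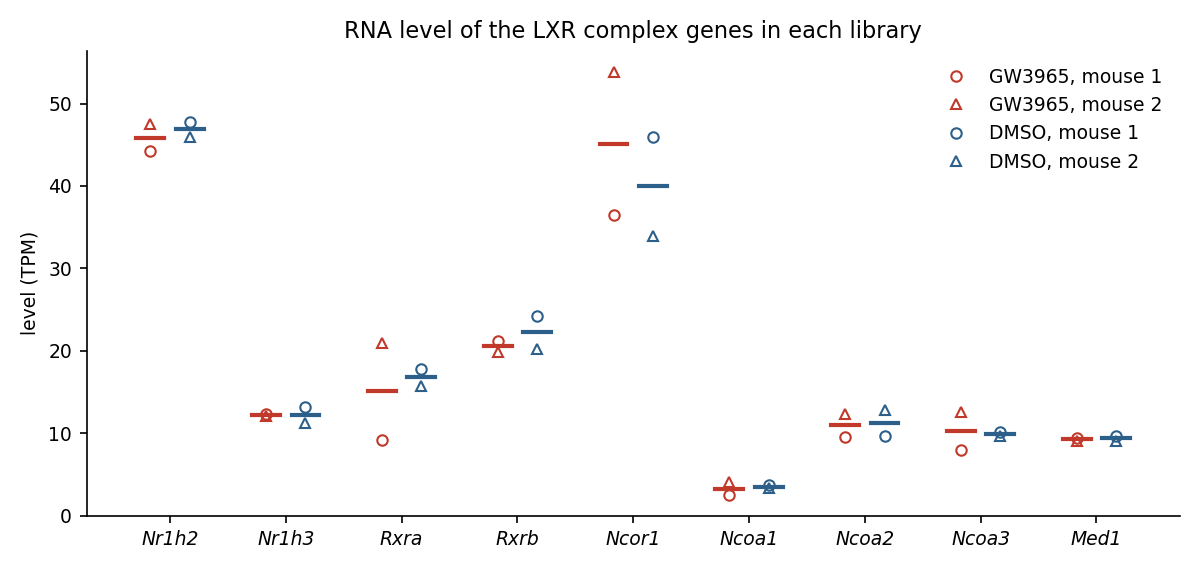
Level of each gene in TPM (y axis) in the 4 libraries, with GW3965 in red left of DMSO in blue; circles are mouse 1, triangles mouse 2 and bars the mean of 2 libraries. Nr1h2 and Ncor1 were highest, Ncoa1 was lowest, and the widest gap between libraries of 1 treatment relative to the level is that of Rxra with GW3965, 9.16 and 20.99 TPM.

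The ratio of Rxra to Rxrb was 0.432 and 1.05 with GW3965, and 0.734 and 0.778 with DMSO. Counting protein-coding transcripts alone, it was 0.683 and 1.48 with GW3965 and 0.933 and 1.24 with DMSO. In mouse 2's DMSO library the order of the 2 genes turned with the transcripts summed, and in the other 3 libraries it did not. Both RXR genes together stood at 0.538 and 0.686 times both LXR genes with GW3965, and at 0.690 and 0.628 times with DMSO. With 2 libraries against 2, an exact permutation test (two-sided) cannot give a p below 0.33, so no ratio was tested.

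Among the coregulators the corepressor was far above the coactivators in TPM summed over all transcripts, a sum in which short transcripts weigh heavily (below). Ncor1, which carries histone deacetylase activity to unliganded receptors, lies on chromosome 11 (62316426 to 62458541, minus strand). It was at 36.4 and 53.8 TPM with GW3965 and at 45.9 and 34.0 TPM with DMSO. Its libraries spread widely, in opposite order between the mice, and the treatments overlapped.

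The p160 coactivators, which bring histone acetyltransferases to liganded receptors, were lower. Ncoa2 (chromosome 1, 13139105 to 13374083, minus strand) was at 9.58 and 12.3 TPM with GW3965, against 9.61 and 12.8 TPM with DMSO. Ncoa3 (chromosome 2, 165992636 to 166073242, plus strand) was at 7.95 and 12.6 TPM with GW3965, against 10.1 and 9.66 TPM with DMSO. Ncoa1 was the lowest of the 9 genes in each treatment's mean.

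Ncoa1 (chromosome 12, 4247362 to 4477182, minus strand) had 2.47 and 4.07 TPM with GW3965 and 3.69 and 3.31 TPM with DMSO. Its DMSO mean was above that of 30.1% of genes tested, whereas the other 8 were above 49.1 to 81.6%. Med1, the Mediator subunit that docks on liganded nuclear receptors, lies on chromosome 11 (98152154 to 98193293, minus strand). In TPM, though not in CPM (below), it was the steadiest of the coregulators. It was at 9.40 and 9.09 TPM with GW3965 and at 9.69 and 9.12 TPM with DMSO.

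In the DMSO cultures the order of mean levels was Nr1h2, Ncor1, Rxrb, Rxra, Nr1h3, Ncoa2, Ncoa3, Med1 and Ncoa1. The libraries of neighbours overlapped between Nr1h3 and Ncoa2, between Ncoa2 and Ncoa3, and between Ncoa3 and Med1, so those neighbours were not separated beyond their spread. Both Nr1h3 libraries lay above those of Ncoa3 and Med1. With GW3965 the order was the same, and non-overlapping neighbours were reduced to Ncor1 above Rxrb and Med1 above Ncoa1. The 3 p160 genes together stood at 0.549 and 0.539 times Ncor1 with GW3965, and at 0.510 and 0.758 times with DMSO.

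No gene of the complex passed the test for a response to GW3965. In edgeR's quasi-likelihood test 0 of 9 had an adjusted p under 0.05, beside 0.0588% of the 13602 genes tested (8 genes, all higher). At an unadjusted p under 0.05 there were 0 of 9, against 143 of the 13602. DESeq2 and limma-voom also called 0 of 9. The fitted log2 fold changes ran from -0.11 to 0.13 with a median of -0.04, 3 positive and 6 negative, and the adjusted p of each was 0.99986. With the mouse as a block, 0.353% of genes were called (48 genes) and 0 of the 9, with adjusted p of 0.99988 each.

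The fit was not tight enough to show that the genes kept their level. The lowest bound of its 95% intervals was a fold of 0.614 (Rxra) and the highest was 1.47 (Med1). No single gene had both bounds, and folds within a gene's own interval were not resolved. Over all genes, 54 were called when mouse 1's GW3965 culture was left out and 84 when mouse 2's was, and 38 and 54 when the DMSO culture of mouse 1 or of mouse 2 was. Of the 9 genes, 0 were called in those fits.

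**Figure D2:**
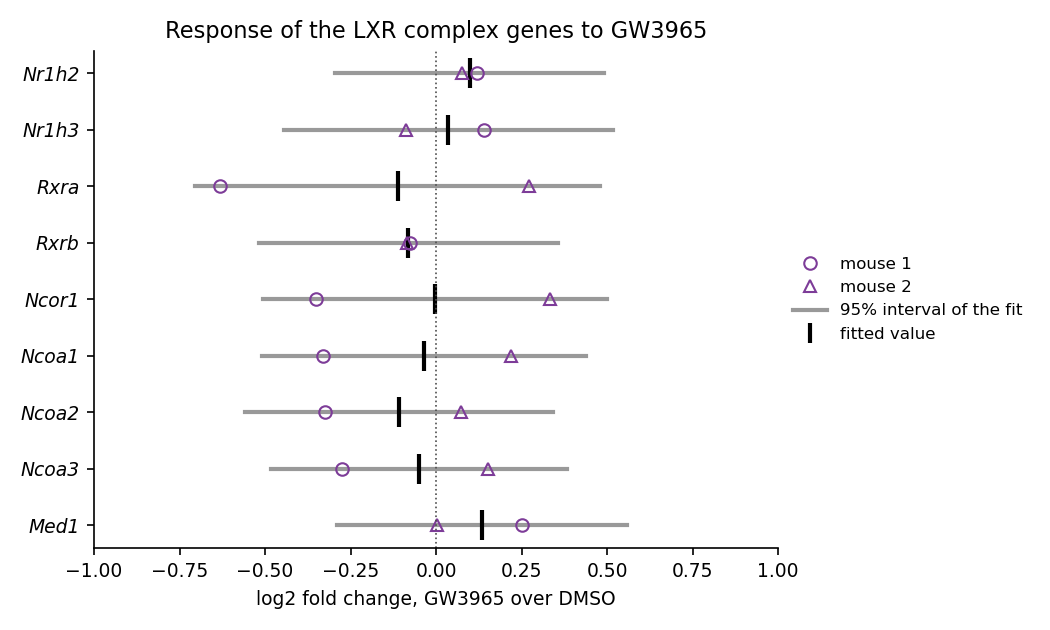
Log2 fold change of GW3965 over DMSO (x axis) for each gene (rows): circles and triangles are the differences within mouse 1 and mouse 2, black ticks the fitted values and grey lines their 95% intervals. Every interval covers 0, and the mice lie on opposite sides of 0 for 6 of the 9 genes, most widely apart for Rxra (-0.63 and 0.27).

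Nr1h2 was the only one of the 9 whose treatments did not overlap in CPM, with 57.3 and 55.1 CPM with GW3965 against 52.8 and 52.2 CPM with DMSO. Non-overlap was common, at 18.5% of all genes tested. Its log2 fold change was 0.10 ± 0.18 (standard error; n = 2 per treatment; edgeR, adjusted p = 0.99986), with a 95% interval of -0.30 to 0.49. On the TPM scale, given above, the treatments overlapped, and the mean was lower with GW3965 (45.9 against 46.9 TPM).

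Nr1h3 had 18.6 and 14.3 CPM with GW3965 against 16.8 and 15.2 CPM with DMSO. The GW3965 libraries enclosed the DMSO libraries on this scale. The log2 fold change was 0.04 ± 0.22, with a 95% interval of -0.45 to 0.52. Leaving out mouse 1's GW3965 culture gave -0.17, and leaving out mouse 2's DMSO culture gave -0.044. LXRα is known to raise its own gene in human macrophages. The upper bound of the interval here corresponds to 1.43-fold.

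Rxra showed the largest disagreement between the mice. It had 46.1 and 84.4 CPM with GW3965 against 71.3 and 69.8 CPM with DMSO. The log2 difference was -0.63 in mouse 1, with a 95% exact (Clopper-Pearson) interval of -0.76 to -0.50, and 0.27 in mouse 2 (0.17 to 0.38). Such intervals hold counting error only, and they compare single libraries, not conditions. The fitted value was -0.11 ± 0.26, and it became 0.26 with mouse 1's GW3965 culture left out and -0.62 with mouse 2's left out.

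Rxrb had 38.6 and 32.2 CPM with GW3965 against 40.7 and 34.2 CPM with DMSO. The difference was -0.08 in mouse 1 and -0.09 in mouse 2, and both counting intervals covered 0. Mouse 1 was above mouse 2 in each treatment, by more than the treatments differed. The fitted value of -0.08 ± 0.20 became 0.042 with mouse 2's GW3965 culture left out and 0.052 with mouse 1's DMSO culture left out.

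Ncor1 had the same signs as Rxra in each mouse, with 101 and 133 CPM with GW3965 against 129 and 105 CPM with DMSO. Its log2 difference was -0.35 in mouse 1 (-0.44 to -0.26) and 0.33 in mouse 2 (0.25 to 0.42). The fitted value was -0.0033 ± 0.23. With mouse 1's GW3965 culture left out it was 0.18, and with that animal's DMSO culture left out it was 0.15. It was also positive with upper-quartile scaling (0.022) and without mitochondrial genes (0.0051).

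The p160 genes had the same pattern of signs. Ncoa1 had 19.3 and 26.9 CPM with GW3965 against 24.3 and 23.1 CPM with DMSO, Ncoa2 had 47.9 and 64.6 against 59.9 and 61.5, and Ncoa3 had 46.7 and 59.6 against 56.4 and 53.7. In each, the GW3965 library of mouse 1 was the lowest of the 4 and that of mouse 2 the highest. The log2 differences were -0.33, -0.32 and -0.27 in mouse 1 and 0.22, 0.07 and 0.15 in mouse 2, for Ncoa1, Ncoa2 and Ncoa3 in that order.

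The fitted values were -0.04 ± 0.21 for Ncoa1, -0.11 ± 0.20 for Ncoa2 and -0.05 ± 0.19 for Ncoa3. With mouse 1's GW3965 culture left out they were 0.18, 0.090 and 0.11. That of Ncoa1 was also 0.0034 with mouse 1's DMSO culture left out. No p160 gene had the same sign in both mice.

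Med1 differed from the other coregulators in mouse 1. It had 48.0 and 38.8 CPM with GW3965 against 40.3 and 38.7 CPM with DMSO. In TPM the direction in mouse 1 was the other way, with 9.40 with GW3965 against 9.69 with DMSO. The log2 difference was 0.25 in mouse 1 (0.11 to 0.40) and 0.0022 in mouse 2 (-0.15 to 0.15). The fitted value of 0.13 ± 0.19 was the highest of the 9, and it was -0.028 with mouse 1's GW3965 culture left out.

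In all, 6 of the 9 genes (66.7%) had opposite signs in the 2 mice, as did 66.5% of all genes tested, so the share was near the background. Whether the response differed between the mice was not tested, since 4 libraries leave no residual degrees of freedom for that term. In the authors' deposited log2 CPM, which lists all 9 genes, 7 had opposite signs, Med1 joining the 6. There the difference of Rxra was -0.30 in mouse 1 and 0.32 in mouse 2, and that of Nr1h2 was 0.06 and 0.11. The mean differences of Rxra (0.011), Ncor1 (0.070), Ncoa1 (0.061) and Ncoa3 (0.023) were positive there, whereas their fitted values were negative. The remaining genes kept the sign of the fit.

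Transcript length moved with the sign of the difference in each mouse. Among genes averaging 10 CPM or more, the median log2 difference in mouse 1 was 0.22 for genes with a mean effective transcript length under 1 kb, and -0.21 for those of 4 to 6 kb. In mouse 2 these medians were -0.15 and 0.11, the other way round. Over 6 kb they were -0.20 and 0.15. Rxra, Ncoa1, Ncoa2, Ncoa3 and Med1 have mean effective lengths of 4434 to 7149 bases, Ncor1 of 2847, and the LXR genes and Rxrb of 1202 to 1746. These means are weighted by TPM, so short transcripts draw them down.

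Set against the median of its own length class, Ncoa3 differed by -0.06 in mouse 1 and 0.05 in mouse 2, and Ncoa1 by -0.13 and 0.07. Ncoa2 differed by -0.11 and -0.03. Rxra still differed by -0.42 and 0.17, and Med1 by 0.46 and -0.10. Ncor1 differed by -0.18 and 0.28 from the class of 2 to 4 kb, in which its TPM-weighted length places it. By counts, longer transcripts led in Ncor1. In mouse 1's GW3965 library Ncor1-213 (6328 bases) and Ncor1-201 (9037 bases) held 517 and 596 of its 1663 counts. The difference of Ncor1 from its class therefore depends on that weighting. The part of transcript length, or of the mitochondrial and leukocyte RNA in the GW3965 library of mouse 1, in these differences was not tested.

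**Figure D3:**
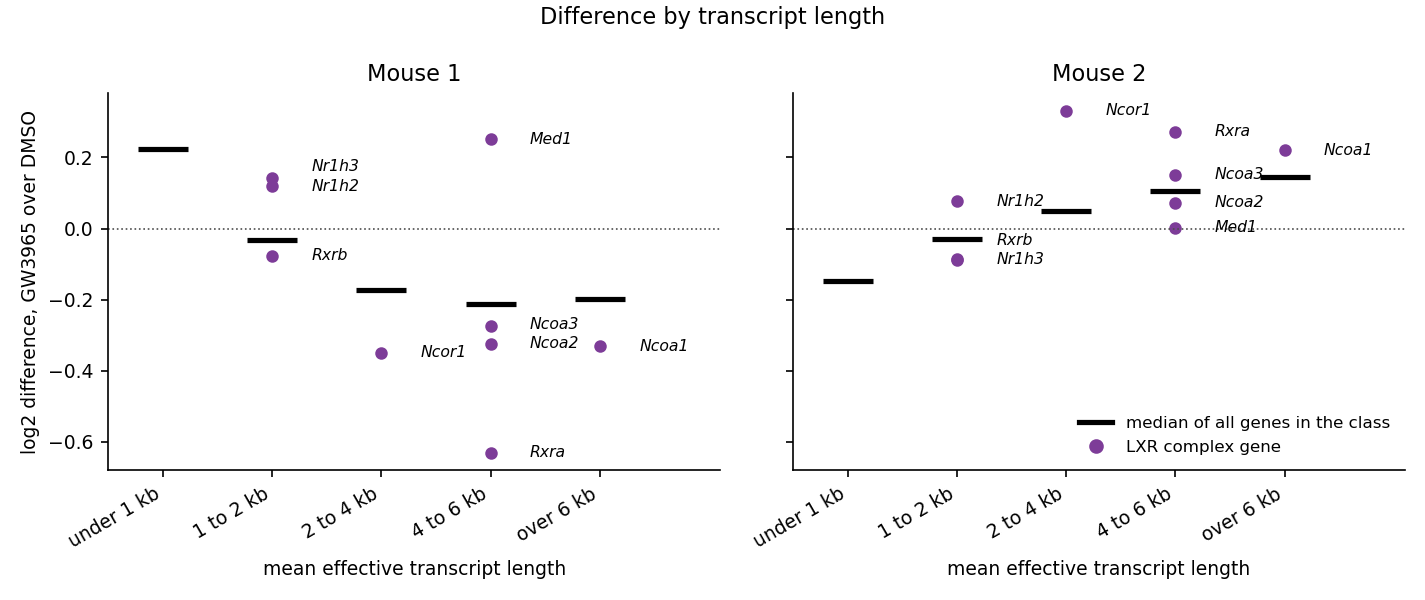
Log2 difference of GW3965 over DMSO (y axis) within mouse 1 and mouse 2 by mean effective transcript length (x axis, 5 classes); black bars are medians of all genes of a class averaging 10 CPM or more and purple points the LXR complex genes. The class medians descend from 0.22 to about -0.20 with length in mouse 1 and climb from -0.15 to 0.15 in mouse 2, with the p160 genes close to them and Rxra, Ncor1 and Med1 farther away. Lengths are weighted by TPM, which sets the class of Ncor1.

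The 9 genes have 86 annotated transcripts in the files, and these differed in how much of each gene's signal came from coding forms. Ncoa1 had a single transcript. Rxra was carried by Rxra-201, which held 92.6 and 79.4% of the gene's TPM with GW3965 and 78.5 and 89.3% with DMSO, and 3 of its 6 transcripts were at 0 in every library. Nr1h3 was divided between Nr1h3-202 (4.82 and 4.92 TPM with GW3965, 4.75 and 5.14 TPM with DMSO) and Nr1h3-201 (3.56 and 2.94 TPM, against 4.73 and 2.81 TPM).

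Nr1h2 had the largest share of counts on intron-retaining transcripts among the 9, of which Rxra, Ncoa1 and Med1 have none annotated. The share of Nr1h2 was 29.2 and 18.6% with GW3965 and 22.8 and 20.98% with DMSO. The median over the 5177 tested genes that have such a transcript was 6.36 and 3.57% with GW3965 and 3.93 and 4.49% with DMSO. The GW3965 library of mouse 1 was the highest of the 4 for Nr1h2, as it was for that median. Rxrb followed with 14.02 and 10.9% against 7.93 and 12.8%, and Nr1h3 with 12.9 and 7.20% against 9.26 and 12.3%.

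Short transcripts weigh heavily in TPM. Ncor1-216, a transcript of 716 bases annotated as coding, held 26.7 and 21.9% of the TPM of Ncor1 with GW3965 and 19.4 and 26.2% with DMSO. It had 94 and 111 of the 1663 and 2528 counts with GW3965, and 86 and 88 of the 2514 and 1987 counts with DMSO. With coding transcripts alone, the p160 genes together stood at 0.568 and 0.629 times Ncor1 with GW3965 and at 0.594 and 0.660 times with DMSO. Ncor1-216 and other short coding transcripts stay in that sum, so it does not take out their weight. Over the 4 libraries the longer Ncor1-213 (6328 bases) averaged 5.86 TPM, beside 6.56 TPM for Ncoa3-202 and 4.79 TPM for Ncoa2-202. The next long coding transcripts, Ncor1-201 (9037 bases), Ncoa3-201 and Ncoa2-201, averaged 4.99, 2.55 and 1.86 TPM. Of these, Ncor1-201 and Ncoa2-201 are not among the 2 leading transcripts of their genes. Single transcripts do not give the level of all long forms of a gene.

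**Figure D4:**
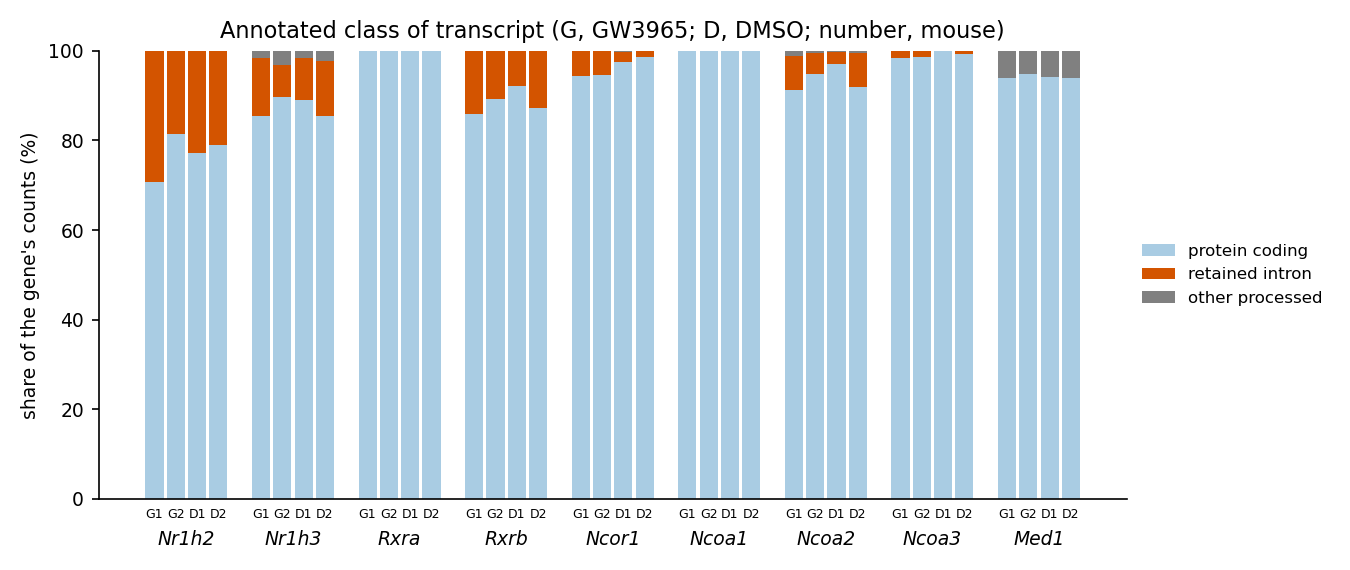
Share of each gene's estimated counts (y axis, %) by the annotated class of transcript in the 4 libraries, with GW3965 left of DMSO. Nr1h2 carries the largest intron-retaining share, 18.6 to 29.2%. Rxra, Ncoa1 and Med1 have no intron-retaining transcript in the annotation, so their share could not differ from none.

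Of the 86 transcripts 50 had enough counts to be tested, and 0 passed, beside 0.0% of the 32357 transcripts tested in edgeR. DESeq2 called 0.603% of transcripts (195) and 0 of the members'. At an unadjusted p under 0.05 there were 846 transcripts, 1 of them from these genes, Nr1h2-203, which is named after its values were seen. It had 0.710 and 1.29 TPM with GW3965 against 2.22 and 4.70 TPM with DMSO (log2 fold change -1.74 ± 0.59, edgeR adjusted p = 0.99998). kallisto divides reads that several transcripts share, so the levels of single transcripts of Nr1h2 are less certain than their sum.

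Other genes around the complex gave few calls. In the corepressor complex list (Hdac3, Gps2 and others), 7 of 8 were tested, 0 rose and 0 fell, and the median log2 fold change was 0.01. Gps2, a subunit of the NCoR complex, had the smallest p, with 43.7 and 38.3 CPM with GW3965 against 37.0 and 37.9 CPM with DMSO (0.13 ± 0.18). Next came Tbl1x, an exchange factor for corepressors (0.06 ± 0.22), and Nrip1, a corepressor of liganded receptors (0.05 ± 0.22).

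Of the 14 other coactivators and RXR genes listed, 13 were tested, 0 rose and 0 fell, with a median of 0.0037. Ppargc1a, the coactivator PGC-1α, had 6.94 and 9.23 CPM with GW3965 against 12.6 and 8.96 CPM with DMSO (-0.41 ± 0.27). The methyltransferase gene Kmt2d had 0.22 ± 0.20 and the acetyltransferase gene Kat2a -0.21 ± 0.20. Of 30 other Mediator subunits, all 30 were tested, 0 rose and 0 fell, with a median of 0.03. Med14, Med20 and Med22 had the smallest p, with -0.25 ± 0.21, 0.21 ± 0.19 and -0.20 ± 0.18.

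Among 14 other partners of RXR, 13 were tested, and 1 rose and 0 fell. Ppara, a receptor for fatty acids, had 16.02 and 20.4 CPM with GW3965 against 4.31 and 4.08 CPM with DMSO (log2 fold change 2.12 ± 0.24, edgeR adjusted p = 0.0142). Its TPM mean was 15.1 with GW3965, near that of Rxra, and 2.80 with DMSO. Ppard, a related receptor, had 102 and 133 CPM with GW3965 against 157 and 143 CPM with DMSO (-0.35 ± 0.22). The early response receptor Nr4a1 had 0.39 ± 0.26. The median of the list was 0.05, and neither Ppard nor Nr4a1 passed the test.

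**Figure D5:**
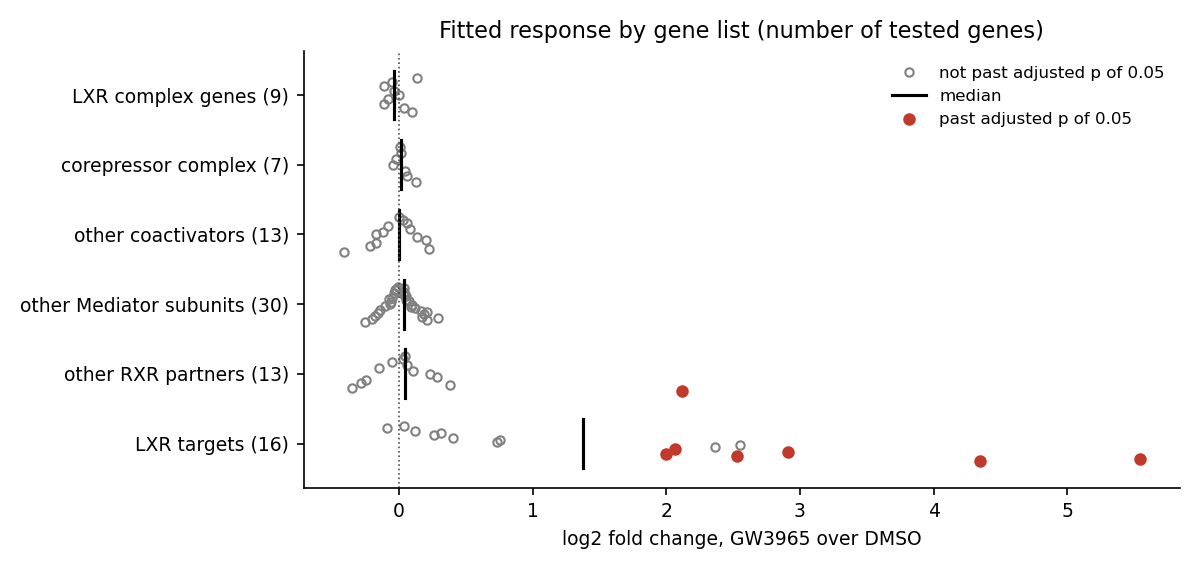
Fitted log2 fold change of GW3965 over DMSO (x axis) for every tested gene of the LXR complex and of 5 fixed lists (rows), with black bars for medians and red points for genes past an adjusted p of 0.05. The complex genes lie between -0.11 and 0.13, and the red points are 6 LXR targets and, among the RXR partners, Ppara.

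The reads of the receptors were not shared with other genes. Of the 31-base words of Nr1h2, Nr1h3, Rxra and Rxrb, 0% occurred in transcripts of another gene. For Ncor1 it was 3.06%, for Ncoa3 1.88%, for Med1 1.01% and for Ncoa2 0.656%. Ncor1 overlaps Pigl, Ttc19 and Gm12276 on the other strand, Ncoa3 overlaps Sulf2 and Med1 overlaps Gm11604, likewise on the other strand. The sources used here do not say whether the counts were made by strand.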

How the data were processed

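Per the submitters' processing notes, kallisto (no version), FastQC and CASAVA 1.7 were used with mm10; per the labels, libraries were poly-A selected, stranded and sequenced as single-end reads of 50 bp. The authors deposited estimated counts and TPM per transcript, a count table holding those values rounded (largest gap 0.5), and log2 CPM for 8524 symbols, whose scaling is not given. The authors' annotation release is not given.

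Transcripts were joined to GENCODE M21 (86119 of 88198 matched; the others held 0.685 to 0.854% of counts and were left out), and estimated counts were summed per gene and rounded. The design fixed the test: edgeR 4.0.16 in R 4.3.3 (filterByExpr, TMM, glmQLFit, glmQLFTest; 2 residual and 7.78 prior degrees of freedom), checked on simulated data. CPM are TMM-scaled. Standard errors come from the F statistic. DESeq2 1.42.0, limma-voom (limma 3.58.1), other scalings, no filter and left-out libraries were alternatives. Per the labels, each number marks 1 mouse that gave both cultures; their deviations from group means correlated at 0.105, and the block fit had 1 residual degree of freedom and an infinite prior. Cultures of 2 mice measure spread between these mice alone. Every pair of libraries differed beyond counting noise (chi-square over its degrees of freedom, 9.89 to 72.0). The genes, lists and naming rule (all 9 genes, up to 3 of each list by p, 2 leading transcripts) were chosen with earlier results of these data known.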

Additional observations from a re-analysis of the deposited data

How the results depend on the processing

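The number of the 9 genes called was 0 in every alternative run (DESeq2, limma-voom, upper-quartile scaling, library size alone, no filter, the mouse as a block, without mitochondrial genes, the whole-number table, and each library left out), and the number of their transcripts called was likewise 0. Over all genes 8 were called in edgeR, against 20 with DESeq2, 20 with limma-voom, 13 with library size alone, 14 with no filter, 48 with the mouse as a replicate block and 38 to 84 when 1 library was left out. DESeq2 called 195 transcripts, where edgeR called 0. Fits without 1 library assume that the lone library varies like the other group.

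The block left the 9 fold changes uncalled and changed no call of a listed gene other than Mylip and Scd1 among the LXR targets, which it added (8 called, against 6 without the block). The sign of Ncor1 turned with upper-quartile scaling (0.022) and without mitochondrial genes (0.0051). Leaving out 1 library gave ranges of -0.17 to 0.21 for Nr1h3, -0.62 to 0.26 for Rxra, -0.22 to 0.052 for Rxrb, -0.21 to 0.18 for Ncor1, -0.30 to 0.18 for Ncoa1, -0.34 to 0.090 for Ncoa2, -0.24 to 0.11 for Ncoa3 and -0.028 to 0.28 for Med1. The sign of Nr1h2 did not turn in any alternative run, all of which fit counts. In TPM its mean was lower with GW3965, and without mitochondrial genes it was higher (values below). The cause was not tested.

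With coding transcripts alone, the mean ratio of Nr1h2 to Nr1h3 was 3.50 with GW3965 and 3.41 with DMSO, against 3.76 and 3.85 with all transcripts. That of Rxra to Rxrb was 1.09 with DMSO, against 0.756, that of both RXR to both LXR genes 0.796 with DMSO, against 0.659, and that of the p160 genes to Ncor1 0.599 with GW3965, against 0.544. Levels in TPM moved as well. Without mitochondrial genes the mean of Nr1h2 was 55.5 TPM with GW3965 and 54.5 TPM with DMSO, against 45.9 and 46.9 TPM with them. Counts of 272 to 2528 per gene and library limit counting error, and the 2 cultures per treatment limit the tests.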
